A study of Haberlea rhodopensis with 10 samples.

Results

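The transcripts described here were those of the chloroplast ribosomal proteins in leaves of Haberlea rhodopensis, a resurrection plant that survives the drying of its leaves and recovers on watering. A unigene, which is a transcript sequence assembled from the reads without a genome, was a member when its Swiss-Prot annotation named a chloroplastic ribosomal protein (or its Nr annotation, where Swiss-Prot gave none). It also had to reach 1 FPKM (fragments scaled to transcript length and library total) in at least 2 libraries. The name was carried by 244 of 142473 unigenes. Of these, 12 were set aside because their nucleotide match was a chloroplast genome, and 26 more lay under the level filter. This left 206 members among the 85267 unigenes tested, 73 of the small (30S) and 133 of the large (50S) subunit, under 18 and 30 protein names.

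Leaf RNA was sequenced at 5 stages, with 2 libraries per stage, from potted plants propagated in vitro. The stages were fresh, fully hydrated leaves (F), slightly dehydrated leaves at about 75% relative water content (D75), extensively dehydrated leaves at about 20% (D20), fully desiccated leaves (DT, labelled under 5%) and leaves rehydrated after full desiccation (R). F and R were labelled about 100%, while the treatment notes gave 90% for both and 6% for DT. Plants took at least 8 days without water to dry out, stayed dry for 10 days and recovered for a week after watering. At least 4 plants were used per sampling point, but how they were divided between the libraries is not given, so p-values measure only the spread between libraries. Libraries held 4522835 to 12734565 counted fragments, the fewest in F replicate 2. The study's notes on the raw reads give the D75 and D20 libraries another read length than the F, DT and R libraries. A comparison of D75 or D20 with F or DT therefore crosses these sets, and stage and read set cannot be told apart there, while D20 against D75, DT against F, R against F and R against DT lie within a set.

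Chloroplasts keep a bacterial type of ribosome, which makes the plastid-encoded subunits of the photosynthetic complexes and the large subunit of Rubisco. Its small subunit reads the messenger RNA and its large subunit forms the peptide bonds. Most of its proteins are encoded in the nucleus, made in the cytosol and imported, and the others are encoded in the plastid genome. A few go by the name of plastid-specific proteins. The Nr match named a plastid ribosomal protein for 143 members, a mitochondrial one for 18, a ribosomal protein of no named compartment for 6 and something else for 39. Among those 39 were the most abundant transcripts of S14, S18 and S21 (30S) and of L13, L22, L29 and L36 (50S). Contigs of the same assembly cluster share sequence, 129 members lay in 44 such clusters, and the division of reads among them is uncertain.

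Transcripts of both subunits were lowest at D20, and the 50S sum was the lower relative to fresh leaves. Levels are given as scaled FPKM, which is the deposited FPKM rescaled by library factors so that stages can be compared. The 30S sum was 2170 and 1687 in F libraries, 1537 and 2021 in D75, 1174 and 1330 in D20, 1589 and 1748 in DT, and 2563 and 2645 in R. The 50S sum was 4268 and 3325 in F libraries, 2769 and 3744 in D75, 1646 and 1617 in D20, 2876 and 2983 in DT, and 5034 and 5068 in R. Both D20 libraries lay below both F libraries in each subunit, and both R libraries lay above them. The mean at D20 was 64.9% of the F mean for 30S and 43.0% for 50S, and the mean at R was 135% and 133%. Members took 0.247% and 0.249% of all fragments at D20, against 0.701% and 0.766% in F. In whole leaves, fewer chloroplast-rich cells and less of these RNAs per cell cannot be told apart.

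**Figure D1:**
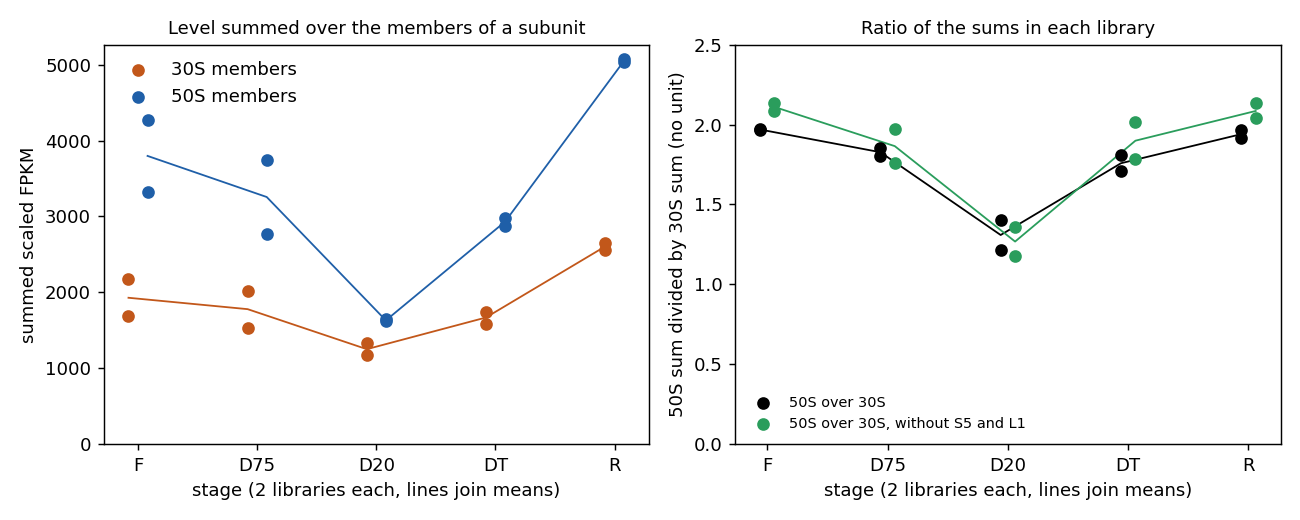
Left, summed scaled FPKM of the 30S and 50S members, and right, the 50S sum divided by the 30S sum (no unit) with and without S5 and L1, at each stage, with a point for each library and lines joining the means of 2 libraries. The sums are lowest at D20 (1174 and 1330 for 30S, 1646 and 1617 for 50S) and highest at R, and the ratio is lowest at D20 (1.40 and 1.21).

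At D20, 91 members fell and 12 rose against F at an adjusted p below 0.05 (edgeR quasi-likelihood test, Benjamini-Hochberg adjustment over all tested unigenes). Those shares were 44.2% and 5.83%, where 17.8% of all tested unigenes fell and 14% rose. The median log2 fold change was −1.63 over the members, with quartiles of −2.71 and −0.37, and −0.33 over all tested unigenes. With members that had no fragment in a stage set at a floor of 3 fragments per library, the member median was −1.32. Both D20 libraries lay below both F libraries in 144 members (69.9%), and in 40.5% of all tested unigenes. In the 30S subunit 29 members fell and 11 rose, and in the 50S subunit 62 fell and 1 rose.

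Among the 143 members with a plastid ribosomal protein as Nr match, 67 fell and 6 rose (46.9% and 4.2%). Marker lists of leaf cells were counted in the same comparison, where 17.8% of all tested unigenes fell and 14% rose. Of 49 tested mesophyll markers (Rubisco small subunits and chlorophyll-binding proteins), 40 fell (81.6%) and none rose. Their summed level was 579.6 and 949 scaled FPKM at D20, against 33530 and 32070 in F. A list named for guard cells and the stomatal lineage, which took in epidermal patterning factors, held 25 tested unigenes. Of these 19 fell and 1 rose (76% and 4%), with sums of 13.4 and 12.3 in D20, against 148 and 126 in F. EPIDERMAL PATTERNING FACTOR-like protein 9 alone held 60.3 and 55.1 of the F sums. Of 14 tested vascular markers 2 fell and 2 rose (14.3% each, near the shares over all tested unigenes). Their sums were 116 and 85.5 in D20, against 75.3 and 58.4 in F. Their median log2 fold change was −0.625, with 9 below 0 and 5 above. PHLOEM PROTEIN 2-LIKE A1 alone held 86.3 and 59.0 of the D20 sums, and 35.6 and 13.6 of the F sums. No list had a marker at 0 in every library, and the part of such shifts in the members' fall was not tested.

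**Figure D2:**
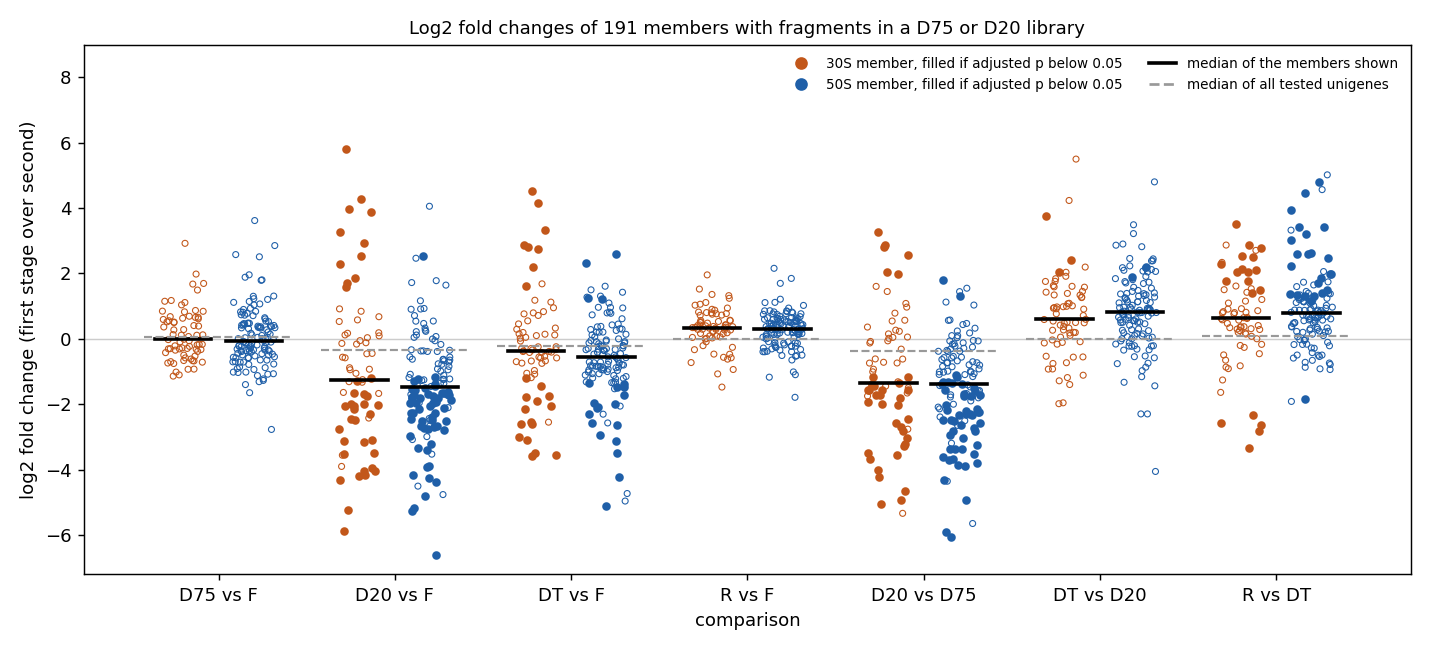
Log2 fold change, first stage over second, of the 191 members with fragments in a D75 or D20 library in each of 7 comparisons, with filled points at an adjusted p below 0.05, black lines at the medians of the points and dashed lines at the median of all tested unigenes. At D20 against F 81 filled points lie below 0 and 12 above, and at R against F no point is filled.

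Summed over the members of the same name, 27 of 48 proteins fell at D20 and 1 rose (edgeR fit on the sums). This was 58.3% called, where 31.8% of all tested unigenes were called in the fit of single unigenes. Those that fell include L2 and L16, whose only unigenes had no fragment in the D75 and D20 libraries. The riser was S14, whose Nr matches named an uncharacterized protein or a helicase. Of the 18 small subunit proteins 7 fell, and of the 30 large subunit proteins 20 fell. The D20 mean was the lowest of the 5 stages in 12 of 18 and 25 of 30 proteins. The median protein stood at 49.3% of its F mean in the small and 36.6% in the large subunit. Proteins are described below by their place in the ribosome, a grouping drawn from background knowledge after the values had been seen.

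**Figure D3:**
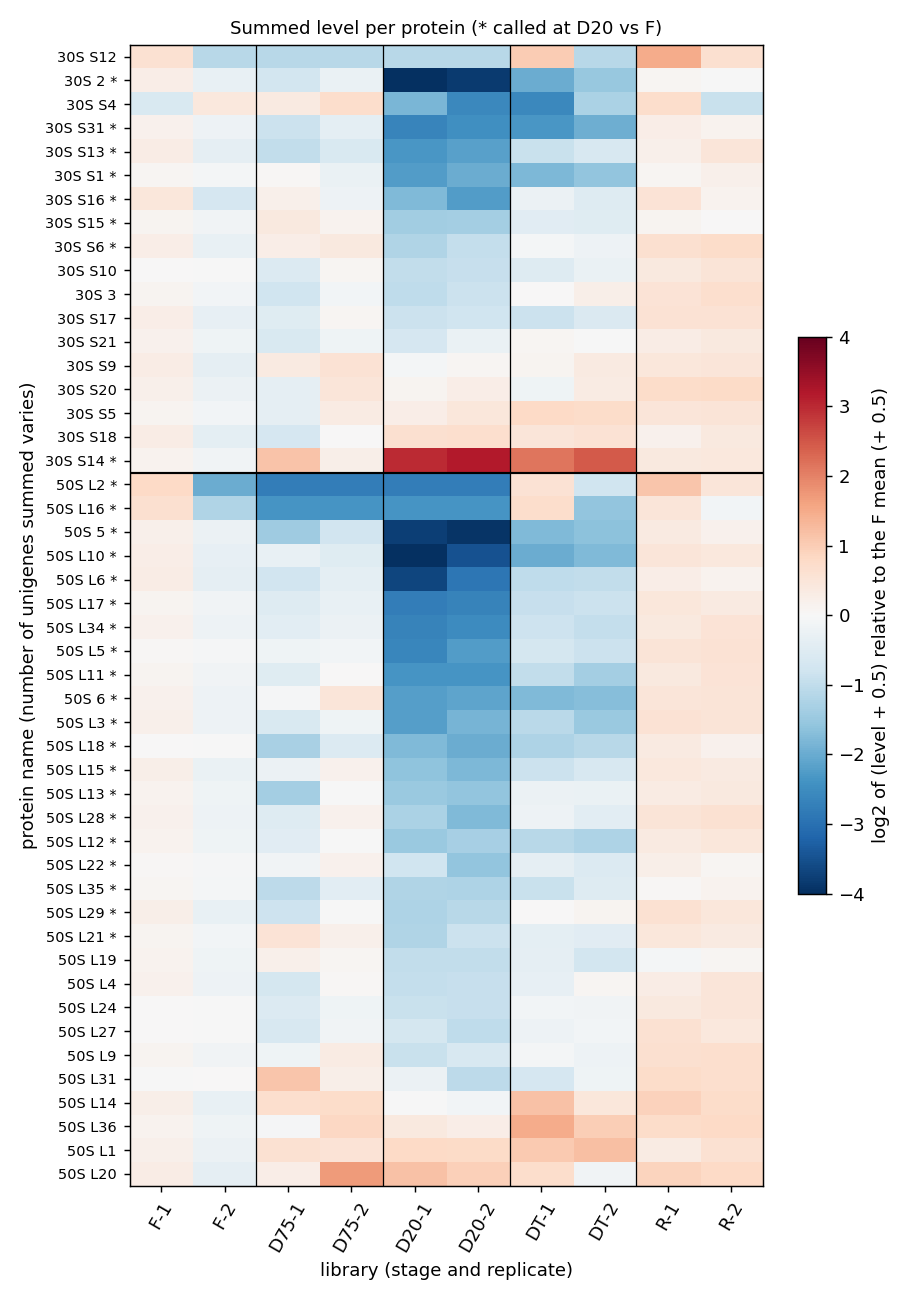
Level of each of the 48 proteins in each library as log2 of the level plus 0.5 relative to the F mean plus 0.5 (colour), with proteins of each subunit ordered by their level at D20 as a percentage of F and an asterisk at those called at D20 against F. Most rows are lowest at D20 (median 39.3% of F), the S14 row is highest there (938% of F) and the R columns are mostly above F.

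Among the 4 proteins that bind the messenger or take part in decoding (S1, S4, S5 and S12), the sum of S1 fell at D20, while that of S5 stood at 129% of F and did not pass the test. S1, which binds the messenger RNA, was carried mainly by Unigene33541. That transcript had 177 and 139 scaled FPKM in F, 167 and 129.6 in D75, 46.8 and 54.0 in D20, 51.0 and 64.2 in DT, and 193 and 204 in R. The D20 and DT libraries lay below all others. The log2 fold change was −1.65 ± 0.39 (SE; adjusted p = 0.0077, edgeR) at D20, and DT followed with −1.46 ± 0.39 (adjusted p = 0.02). A second S1-annotated transcript, Unigene19044, had 13.1 and 12.7 in F, 0.203 and 0.467 in D20, 1.21 and 1.08 in DT and 13.01 and 13.07 in R. It fell by 5.25 ± 0.48 on the log2 scale at D20 (adjusted p = 4.0e-05, edgeR), and its Nr match was an uncharacterized protein. S4 and S12 were near the detection limit, at means of 2.46 and 0.570 scaled FPKM in F.

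In the head of the small subunit, S13, which contacts the transfer RNAs, fell to 7.80 ± 0.622 scaled FPKM at D20 (mean ± SD of 2 libraries), against 39.1 ± 12.3 in F (sum of 5 members; adjusted p = 7.4e-04, edgeR). S10, also a head protein, was carried by Unigene1696, with 81.2 and 85.5 in D20, against 159 and 158 in F. Its groups did not overlap, but the difference did not pass the test (log2 fold change −0.93 ± 0.38, adjusted p = 0.079, edgeR). For S9, which reaches into the decoding site in bacteria, the main transcript CL9609.Contig3 had 66.4 and 73.3 in D20, against 99.0 and 56.9 in F, and the groups overlapped (adjusted p = 0.78). A minor S9 contig of the same cluster, CL9609.Contig4, had 2.70 and 2.34 in F, 9.46 and 4.80 in D75, 8.19 and 10.2 in D20, 8.76 and 14.3 in DT, and 5.75 and 7.26 in R. All later libraries lay above F, and the contig rose at D20 by a log2 fold change of 1.85 ± 0.47 (adjusted p = 0.011) and at DT by 2.18 ± 0.48 (adjusted p = 0.0068, edgeR).

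S14, another head protein, was the protein whose sum rose at D20. Its 6 members were contigs of the cluster CL1866, and their sum was 39.3 ± 4.04 scaled FPKM at D20, against 4.20 ± 0.607 in F. The most abundant, CL1866.Contig8, had 2.86 and 1.74 in F, 4.02 and 2.51 in D75, 13.4 and 13.5 in D20, 5.00 and 9.20 in DT, and 2.92 and 3.01 in R. Both D20 libraries stood above every other library (log2 fold change 2.54 ± 0.45, adjusted p = 0.0013, edgeR). All 6 contigs rose, and they make up 6 of the 12 members that rose at D20. Their Nr matches named an uncharacterized protein or a helicase, so the annotation as S14 rests on the Swiss-Prot match. The length of Contig8 was 2637 bases, where the median member was 959.5 bases long.

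The body and platform of the small subunit held proteins that fell beside others that did not pass the test, and 4 of 9 fell at D20. S16, which helps assemble the body in bacteria, fell to 7.72 ± 1.87 scaled FPKM at D20, against 31.9 ± 16.8 in F (adjusted p = 0.0041, edgeR). The transcript with 61.3% of that sum, CL3146.Contig3, had a mitochondrial ribosomal protein as Nr match, and another, Unigene28610, had no fragment in the D75 and D20 libraries. S6, a platform protein, fell to 28.1 ± 3.62 at D20, against 59.8 ± 16.5 in F (adjusted p = 0.038). S15, which binds the central domain of the ribosomal RNA in bacteria, fell to 3.53 ± 0.0200 at D20, against 9.98 ± 1.25 in F (adjusted p = 0.028). S18, the partner of S6 on the platform, was not called, at 29.8 ± 0.310 in D20, against 18.6 ± 6.21 in F (adjusted p = 0.2, edgeR). S21 (Unigene47830) had 108 and 144 in D20, against 192 and 151 in F (log2 fold change −0.45 ± 0.38, adjusted p = 0.38). S20 (Unigene38348), which binds the ribosomal RNA early in assembly in bacteria, had 132 and 149 in D20, against 143 and 104 in F (0.19 ± 0.41, adjusted p = 0.75). S17 was carried by Unigene43098, with 100.0 and 112 in D20, against 248 and 159 in F (−0.94 ± 0.41, adjusted p = 0.093). D20 and F did not overlap for S17 and S21, while S20 overlapped. The remaining risers of the small subunit, apart from S14, S9 and S5, were 3 low S17 contigs of the cluster CL10728.

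Of the 5 plastid-specific proteins 4 fell at D20, and the median over the 5 was 16.8% of the F mean. The 30S protein 2 resembles the plastid RNA-binding proteins. Its single transcript, Unigene47584, had 129.6 and 87.8 scaled FPKM in F, 64.5 and 89.5 in D75, 4.87 and 7.19 in D20, 26.8 and 37.9 in DT, and 114 and 108 in R. D20 was far below every other stage, at 5.55% of the F mean (log2 fold change −4.17 ± 0.46, adjusted p = 8.0e-05, edgeR). DT was below F as well (−1.75 ± 0.41, adjusted p = 0.0097), and R overlapped F.

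The 50S protein 5 (Unigene23965) had the same order of stages. It had 173 and 126 scaled FPKM in F, 55.4 and 87.2 in D75, 10.6 and 9.44 in D20, 43.8 and 47.6 in DT, and 192 and 169.5 in R. D75, D20 and DT all lay below F and R, and the falls at D20 (−3.90 ± 0.42, adjusted p = 8.0e-05, edgeR) and DT (−1.71 ± 0.39, adjusted p = 0.0082) passed the test while that at D75 did not (−1.07 ± 0.38, adjusted p = 0.18). The most abundant S31 transcript, CL7284.Contig1 (44.7% of the sum of 5), had 67.6 and 54.2 in F, 31.9 and 45.1 in D75, 4.43 and 6.42 in D20, 14.5 and 18.1 in DT, and 71.6 and 71.7 in R. It fell by 3.48 ± 0.41 on the log2 scale at D20 (adjusted p = 1.2e-04, edgeR) and by 1.90 ± 0.38 at DT (adjusted p = 0.0043). The next, CL7284.Contig3, chosen after its values were seen, had 13.1 and 14.4 in D20 and 8.01 and 10.6 in DT, against 67.4 and 45.1 in F, so its lowest stage was DT.

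The most abundant of 7 transcripts of the 50S protein 6 (Unigene36516) had 42.4 and 36.6 in F, 9.21 and 58.9 in D75, 6.33 and 7.41 in D20, 6.02 and 7.13 in DT, and 72.4 and 67.6 in R. DT was as low as D20, and the D75 libraries lay on opposite sides of F. Its falls passed the test at D20 (−2.52 ± 0.66, adjusted p = 0.012, edgeR) and at DT (−2.58 ± 0.66, adjusted p = 0.015). The 30S protein 3 was the plastid-specific protein whose sum did not pass the test at D20, at 52.4% of F. Its transcripts did not move alike. CL9894.Contig2 fell to 14.6 and 22.5 in D20, against 87.5 and 77.9 in F (−2.16 ± 0.41, adjusted p = 0.0019, edgeR). Unigene18979, chosen after its values were seen, had 42.6 and 42.2 in D20, against 20.0 and 24.9 in F (0.92 ± 0.47, adjusted p = 0.16).

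Of the 4 stalk proteins of the large subunit, which guide the translation factors (L10, L11, L12) or the leaving transfer RNA (L1), 3 fell at D20. The L12 transcript Unigene7095 showed the largest fall at D20 among the 191 members with fragments in a D75 or D20 library. It had 92.8 and 89.0 scaled FPKM in F, 51.1 and 59.7 in D75, 1.38 and 0.436 in D20, 6.45 and 3.23 in DT, and 126 and 145 in R. D20 and DT lay far below the other stages (−6.62 ± 0.60, adjusted p = 3.9e-05 by edgeR at D20, then −4.23 ± 0.52, adjusted p = 2.8e-04, at DT). A second L12 transcript, Unigene5508, was chosen after its values were seen. It had 48.5 and 37.9 in F, 49.4 and 71.1 in D75, 37.1 and 46.0 in D20, 36.6 and 34.7 in DT, and 61.2 and 62.5 in R. D20 and F overlapped (−0.06 ± 0.36, adjusted p = 0.92).

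L10, which anchors L12 to the ribosome, fell to 8.14 ± 2.65 scaled FPKM at D20, against 117 ± 32.6 in F, as the sum of 3 members (adjusted p = 9.9e-05, edgeR). For L11, at the base of the stalk, CL174.Contig3 had 33.1 and 38.0 in F, 19.4 and 19.6 in D75, 0.476 and 1.46 in D20, 4.19 and 3.97 in DT, and 30.2 and 36.5 in R. D20 and DT again lay below the other stages (−5.18 ± 0.51, adjusted p = 5.1e-05 by edgeR at D20, then −3.12 ± 0.45, adjusted p = 6.9e-04, at DT).

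For L1 and S5, a transcript that rose at D20 made up a large share of the subunit sum there. The L1 contig CL8885.Contig3 had 69.7 and 46.2 scaled FPKM in F, 131 and 136 in D75, 341 and 327 in D20, 324 and 376 in DT, and 74.7 and 119.8 in R. D20 and DT stood above all other libraries (2.52 ± 0.44, adjusted p = 0.0012 by edgeR at D20, then 2.60 ± 0.44, adjusted p = 0.0017, at DT), and this was the single 50S member that rose at D20. Another contig of the same cluster, CL8885.Contig4 (chosen after its values were seen), had 210.5 and 154 in F, 234 and 239 in D75, 91.2 and 92.1 in D20, 196 and 200.2 in DT, and 231 and 261 in R. Its D20 libraries lay below all others, but the difference from F did not pass the test (−0.99 ± 0.39, adjusted p = 0.07).

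For S5, which helps keep decoding accurate, CL7829.Contig1 had 249 and 223 scaled FPKM in F, 138 and 246 in D75, 71.9 and 74.8 in D20, 124 and 158 in DT, and 307 and 319 in R. Unigene13875, also annotated as S5, had 23.9 and 8.71 in F, 54.9 and 74.5 in D75, 237 and 277 in D20, 319.5 and 270.1 in DT, and 50.3 and 43.8 in R. The first fell at D20 (−1.69 ± 0.42, adjusted p = 0.0094, edgeR) and the second rose (3.97 ± 0.53, adjusted p = 2.3e-04), staying up at DT (4.17 ± 0.53, adjusted p = 3.4e-04). Between D20 and F the order of the pair was turned round. Unigene13875 made up 20.2% and 20.8% of the 30S sum at D20, against 1.10% and 0.517% in F, and CL8885.Contig3 made up 20.7% and 20.2% of the 50S sum at D20, against 1.63% and 1.39% in F. Nr matches of both named the chloroplast protein.

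**Figure D4:**
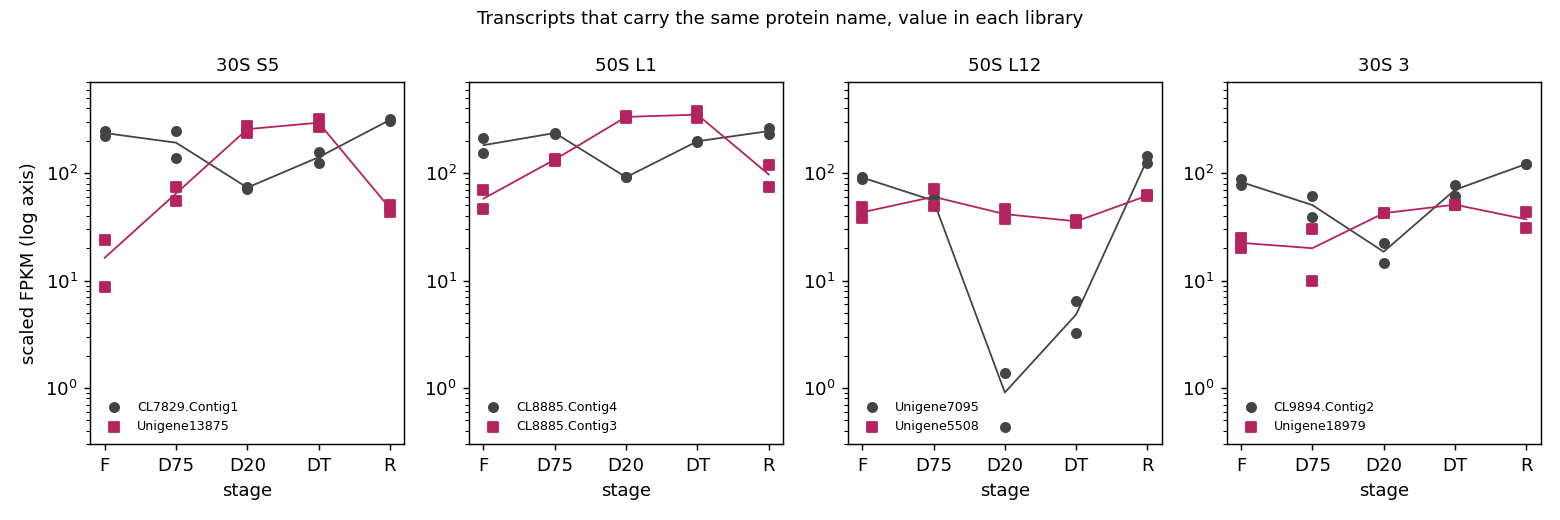
Scaled FPKM (log axis) of pairs of transcripts that carry the name of the same protein (S5, L1, L12 and 30S protein 3) by stage, with a point for each library and lines joining the means. In S5 the lines cross, with Unigene13875 at 237 and 277 in D20 and CL7829.Contig1 at 71.9 and 74.8, and in L1 too, with CL8885.Contig3 at 341 and 327 and CL8885.Contig4 at 91.2 and 92.1.

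Around the peptidyl transferase centre, where the peptide bond forms, 3 of 4 proteins fell at D20. L3 fell to 20.6 ± 3.49 scaled FPKM at D20, against 85.1 ± 16.9 in F (adjusted p = 0.002, edgeR). L27, which reaches into the centre in bacteria, was carried by Unigene1860, with 102 and 81.6 in D20, against 157 and 158 in F. The libraries did not overlap, but the difference did not pass the test (−0.78 ± 0.38, adjusted p = 0.14). The other falls, of L2 and L16, were of transcripts without a fragment in 4 libraries, given further down.

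Among the 5 proteins lining the exit tunnel or its mouth, 3 fell at D20. L29, at the mouth, had 294 and 201 scaled FPKM in F, 139.7 and 244 in D75, 106 and 114 in D20, 248 and 268 in DT, and 374 and 339 in R (Unigene33471). D20 was the lowest stage (−1.17 ± 0.41, adjusted p = 0.047, edgeR), and DT lay within the range of F. L17 fell to 16.0 ± 0.676 at D20, against 108 ± 13.2 in F (adjusted p = 2.5e-04). L4, which narrows the tunnel, was carried by Unigene43145, with 112 and 117 in D20, against 243 and 188 in F (−0.92 ± 0.42, adjusted p = 0.11). L22, which also lines the tunnel, fell to 2.34 ± 1.03, against 5.74 ± 0.331 in F (adjusted p = 0.038), and L24, at the mouth, had 47.6 ± 0.627, against 89.1 ± 1.01 in F (adjusted p = 0.072). In the central protuberance, L5 and L18, which bind 5S ribosomal RNA in bacteria, both fell. L5 had 19.8 ± 3.83 at D20, against 108 ± 6.25 in F (adjusted p = 5.3e-04, edgeR), and L18 had 45.6 ± 4.39, against 168 ± 0.358 in F (adjusted p = 0.0026). L31, at the contact of the subunits in bacteria, had 1.87 ± 0.923 at D20, against 3.03 ± 0.0901 in F (adjusted p = 0.27).

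Of the 14 other large subunit proteins, 9 fell at D20. L6, near the site where translation factors bind, fell to 20.4 and 37.8 scaled FPKM at D20 (Unigene38103), against 374 and 235 in F. It had 179 and 232 in D75, 151 and 153 in DT, and 364 and 334 in R. The D20 libraries stood far below the rest (−3.39 ± 0.48, adjusted p = 3.3e-04, edgeR). L15, an early assembly protein in bacteria and the most abundant single transcript in F (Unigene38335), had 429 and 299.7 in F, 317 and 414 in D75, 115 and 101 in D20, 193 and 229 in DT, and 491 and 474 in R. D20 was the lowest stage here too (−1.75 ± 0.42, adjusted p = 0.0075).

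L13 (Unigene19225), another early assembly protein, had 80.6 and 78.2 in D20, against 289 and 232 in F (−1.72 ± 0.50, adjusted p = 0.02, edgeR). The most abundant of 3 L35 transcripts (CL6925.Contig2) had 26.3 and 21.6 in D20, against 79.8 and 74.9 in F (−1.69 ± 0.41, adjusted p = 0.008). L34 fell to 26.3 ± 1.99, against 161 ± 30.6 in F, as the sum of 2 members (adjusted p = 3.8e-04). L28 fell to 50.5 ± 12.3, against 143 ± 26.6 in F (adjusted p = 0.014), and L21 to 21.4 ± 3.63, against 43.9 ± 4.37 in F (adjusted p = 0.033). L9 had 22.9 ± 3.12 at D20, against 39.1 ± 4.93 in F, and L19 had 15.6 ± 0.0727, against 31.5 ± 4.68 in F (adjusted p = 0.093 and 0.078, edgeR). L20, L36 and L14 stood apart from these. Their sums were 32.8 ± 3.29, 36.0 ± 2.18 and 16.1 ± 0.787 at D20, against 15.4 ± 4.85, 28.6 ± 4.57 and 16.7 ± 4.60 in F, and none passed the test (adjusted p = 0.11, 0.54 and 0.93, edgeR). The main L14 transcript had a mitochondrial ribosomal protein as Nr match.

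Of the 12 proteins that most flowering plants encode in the plastid genome, 5 fell and 1 rose at D20. The 5 plastid-specific proteins, of which 4 fell, were counted apart from the others. Of the 31 remaining proteins, encoded in the nucleus, 18 fell and none rose, a difference that was not tested. In the fit of single unigenes 17.8% of all tested unigenes fell and 14% rose. Since unigenes with a chloroplast genome match were set aside, the 12 hold only what remained under those names. Among the 5 of the 12 that fell, L2 and L16 had no fragment in the D75 and D20 libraries. The main S16 transcript matched a mitochondrial protein in Nr, and S14, the riser, an uncharacterized protein or a helicase. For the only L22 unigene the Nr match named something other than a ribosomal protein. Where these genes lie in H. rhodopensis was not analysed here. The 12 unigenes set aside for a chloroplast genome match moved otherwise, and 7 were tested. Of these 7, 3 rose and 1 fell at D20 (42.9% and 14.3%). The summed level of the 12 was 37.3 and 18.3 scaled FPKM at D20, against 4.87 and 3.77 in F. The most abundant of them, S3 (Unigene8344), had 0.963 and 0.484 in F, 11.3 and 35.9 in D75, 8.59 and 4.36 in D20, 0.945 and 1.12 in DT, and 1.38 and 0.761 in R. It was high in the D75 and D20 libraries alone. All unigenes with a chloroplast genome match took 1.33% to 2.47% of the fragments in the D75 and D20 libraries and 0.496% to 0.916% in the F, DT and R libraries, a division that follows the read sets.

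Relative to F, the D20 level was lower in the 50S than in the 30S subunit in the sums, but not in every way of counting. The ratio of the 50S to the 30S sum was 1.97 and 1.97 in F, 1.80 and 1.85 in D75, 1.40 and 1.21 in D20, 1.81 and 1.71 in DT, and 1.96 and 1.92 in R. Both D20 libraries lay below every other, with a difference from F of −0.66 (exact permutation test, two-sided p = 0.333, the smallest that 2 against 2 libraries can give). D75, DT and R against F gave the same p, even at a difference of −0.029 for R, so this test cannot set D20 apart. Without S5 and L1 the ratio was 1.36 and 1.18 in D20, against 2.09 and 2.13 in F. The 30S median log2 fold change exceeded that of 50S by 0.34, where libraries of a stage differed in this measure by an SD of 0.081. The difference of the medians was 0.06 over members with a plastid Nr match, 0.005 when fragments were summed per assembly cluster and 0.46 when summed per protein.

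At D75 few members were called. No member rose and 6 fell against F (2.91%), where 0.671% of all tested unigenes rose and 1.16% fell, and 34 members (16.5%) had an unadjusted p below 0.05, the same as the share over all tested unigenes (16.9%). The medians were −0.13 over the members and 0.05 over all tested unigenes. All 6 that fell had no fragment in any D75 or D20 library, and no member fell among the 191 that had fragments there. The D75 libraries lay far apart, with a median absolute log2 difference between the pair of 0.485 over the members, against 0.200 between the D20 libraries. Without D75 replicate 2, 14 members rose and 27 fell (19.9% called), and the share called over all tested unigenes was 13.6%.

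Between the dehydrating stages, which share a read set, 79 members fell and 9 rose at D20 against D75 (38.3% and 4.37%), where 14.5% of all tested unigenes fell and 10.7% rose. The median was −1.17 over the members (−1.18 for 30S, −1.15 for 50S) and −0.38 over all tested unigenes. L12 Unigene7095 fell by 5.91 ± 0.58 on the log2 scale (adjusted p = 1.1e-04, edgeR), L6 Unigene38103 by 2.82 ± 0.46 (adjusted p = 0.0014) and the 30S protein 2 by 3.67 ± 0.45 (adjusted p = 2.7e-04). S5 Unigene13875 rose by 1.99 ± 0.48 (adjusted p = 0.011) and L1 CL8885.Contig3 by 1.32 ± 0.42 (adjusted p = 0.039). When the 4 libraries were fitted alone, 27 fell and 1 rose (13.6% called), and the share called over all tested unigenes was 5.61%.

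Of the members, 15 had no fragment in any of the 4 D75 and D20 libraries. Their summed fragments were 671 and 58 in F, 543 and 180 in DT, and 736 and 502 in R, so that replicates of a stage differed widely. They included the sole unigenes for S12, L2 and L16, and the S16 transcript Unigene28610, with 13.2 and 1.58 scaled FPKM in F, 9.98 and 4.00 in DT and 16.5 and 10.0 in R. Swiss-Prot matches were mostly proteins of algae such as Rhodomonas salina, Porphyra purpurea and Thalassiosira pseudonana. Presence and absence follow the read sets, so the falls of these members at D75 and D20 cannot be told apart from that division. They account for 10 of the 91 members that fell at D20.

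In desiccated leaves the members stood closer to fresh leaves than at D20. At DT 32 members fell and 12 rose against F (15.5% and 5.83%), where 12.4% of all tested unigenes fell and 10.1% rose, so the members' shares were close to the background. The medians were −0.40 over the members and −0.22 over all tested unigenes. On the sums per protein 9 fell and 2 rose, and 4 of the 5 plastid-specific proteins were among those that fell. This was 22.9% called, close to the 22.5% of all tested unigenes called in the fit of single unigenes. The risers were S14 and L36, and L36 (Unigene47794), a small protein of the large subunit, had 80.7 and 57.2 scaled FPKM at DT, against 31.9 and 25.4 in F (1.26 ± 0.40, adjusted p = 0.038, edgeR). For L36, as for S14, the Nr match named something other than a ribosomal protein, so the name rests on the Swiss-Prot annotation or its stand-in.

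Against D20, 6 members rose at DT and none fell (2.91%), where 0.22% of all tested unigenes rose and 0.108% fell. The median was 0.90 over the members and 0.00 over all tested unigenes, 164 of 206 members had a positive log2 fold change (79.6%, and 48.9% of all tested unigenes), and 75 had an unadjusted p below 0.05 (36.4%, and 11088 of all 85267 tested unigenes). The risers were the 30S protein 2 (2.42 ± 0.42, adjusted p = 0.041, edgeR), the 50S protein 5 (2.19 ± 0.40, adjusted p = 0.045), S1 CL8391.Contig2, S6 CL12392.Contig1, L17 Unigene47835 and the S16 transcript with no fragment at D20. S1 CL8391.Contig2 had 11.1 and 10.4 scaled FPKM at DT, against 2.86 and 2.35 in D20. No riser remained when a D20, DT or R library was left out, and 38 rose and 2 fell (19.4% called) when either D75 library was left out, where 5.38% and 5.41% of all tested unigenes were called.

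In rehydrated leaves the transcripts were back at or above the level of fresh leaves. Against DT, 37 members rose and 6 fell at R (17.96% and 2.91%), where 9.3% of all tested unigenes rose and 5.96% fell. The median was 0.75 over the members (0.65 for 30S, 0.80 for 50S) and 0.09 over all tested unigenes. L12 Unigene7095 rose by 4.80 ± 0.53 on the log2 scale (adjusted p = 3.3e-04, edgeR), S1 Unigene19044 by 3.50 ± 0.43 (adjusted p = 5.0e-04) and Unigene36516, the most abundant of 7 transcripts of the 50S protein 6, by 3.41 ± 0.68 (adjusted p = 0.0061). Those that fell included S5 Unigene13875 (−2.65 ± 0.49, adjusted p = 0.0044) and L1 CL8885.Contig3 (−1.85 ± 0.43, adjusted p = 0.014). In S5 the order of fresh leaves was thereby restored, with CL7829.Contig1 at 307 and 319 and Unigene13875 at 50.3 and 43.8.

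Against F, no member was called at R by edgeR, DESeq2 or limma, and 0.0293% of all tested unigenes rose and 0.00938% fell. An unadjusted p below 0.05 was found in 9 members (4.37%) and in 8.75% of all tested unigenes. The median was 0.35 over the members and 0.00 over all tested unigenes. It was 0.36 over cytosolic and 0.35 over mitochondrial ribosomal protein unigenes, lists described further down, so the shift was not particular to the members. Both R libraries lay above both F libraries in 93 members (45.1%), and in 24.2% of all tested unigenes. On the sums per protein, the R mean exceeded the F mean in all 48 proteins, at a median of 136.5% and a range of 100.5% to 319%, and R was the highest of the 5 stages in 36. The size rested on the F libraries, since the member median was 0.20 without F replicate 2 and 0.52 without F replicate 1, and it was 0.08 with limma on log2(FPKM + 1).

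Other parts of the translation machinery were counted in the same fit, from lists built on annotation words. Over all tested unigenes 17.8% fell and 14% rose at D20, with a median of −0.33. Of 946 cytosolic ribosomal protein unigenes, 69 fell and 71 rose at D20 (7.3% and 7.5%, both under the shares over all), with a median of 0.00. The most abundant, S15 of the cytosolic small subunit (CL12359.Contig1), had 533 and 527 scaled FPKM at D20, against 348 and 219.5 in F (0.90 ± 0.47, adjusted p = 0.16, edgeR). Of 47 mitochondrial ribosomal protein unigenes, 5 fell and 2 rose (10.6% and 4.26%), with a median of 0.41. The most abundant, mitochondrial S11 (CL11556.Contig2), had 44.0 and 44.7 in D20, against 34.3 and 25.2 in F (adjusted p = 0.21).

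Among 66 plastid ribonucleoproteins, which bind and stabilise plastid messengers, 25 fell and 11 rose at D20 (37.9% and 16.7%), with a median of −0.999. The 29 kDa ribonucleoprotein A (CL18345.Contig6) fell to 47.2 and 83.5 scaled FPKM at D20, against 475 and 312 in F (−2.59 ± 0.47, adjusted p = 0.0015, edgeR). Of 38 unigenes for ribosome assembly and ribosomal RNA proteins of the plastid, 15 fell and 2 rose (39.5% and 5.26%, median −0.87). The most abundant unigene matched by the words of that list was annotated as ribosome-binding factor PSRP1 (Unigene19050), and a role in assembly was not tested for it. It fell to 42.4 and 39.1 in D20, against 128 and 75.7 in F (adjusted p = 0.024, edgeR). Of 52 plastid translation factors 16 fell and 2 rose (30.8% and 3.85%, median −0.61). Elongation factor G (Unigene1685), which moves the ribosome along the messenger, had 76.6 and 107 in D20, against 129 and 106 in F, and the groups overlapped (adjusted p = 0.54).

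For plastid aminoacyl-tRNA ligases, 3 of 16 fell and 3 rose (18.75% each, near the shares over all tested unigenes), with a median of −0.58. The glutamate ligase (CL7474.Contig2) had 17.02 and 16.3 in D20, against 14.6 and 18.1 in F (adjusted p = 0.96, edgeR). Plastid transcription unigenes were split, with 11 of 36 falling and 12 rising at D20 (30.6% and 33.3%, median −0.30). The most abundant, sigma factor binding protein 1 (CL15810.Contig1), rose to 278 and 256 in D20, against 18.99 and 5.88 in F (4.42 ± 1.00, adjusted p = 0.0057). The most abundant marker of each list is itself part of its list's sum, so the direction of the 2 is not independent. The vascular marker rose while the median of its list was −0.625. Rubisco small chain 2 (CL7824.Contig2) fell to 32.8 and 46.2 in D20, against 9273 and 6364 in F (−7.63 ± 0.76, adjusted p = 5.1e-05). EPIDERMAL PATTERNING FACTOR-like protein 9 (CL2796.Contig1) fell to 0.564 and 1.01, against 60.3 and 55.1 in F (adjusted p = 4.0e-05, edgeR). It was listed by name under guard cells and the stomatal lineage, and whether it marks guard cells in these leaves was not tested. PHLOEM PROTEIN 2-LIKE A1 (Unigene32930) rose to 86.3 and 59.0, against 35.6 and 13.6 in F (adjusted p = 0.035, edgeR).

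**Figure D5:**
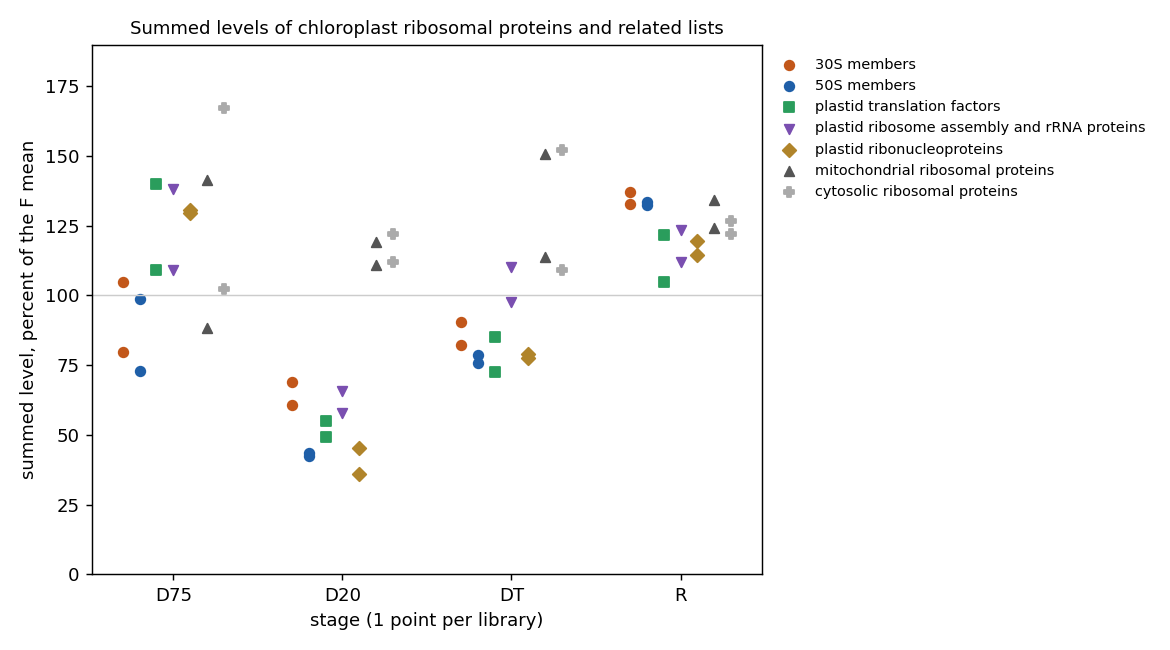
Summed scaled FPKM of the 30S and 50S members and of 5 related lists at D75, D20, DT and R as a percentage of the F mean, with a point for each library. At D20 the 30S members stand at 60.9% and 69.0%, the 50S members at 43.4% and 42.6%, the plastid ribonucleoproteins at 36.1% and 45.5% and the cytosolic ribosomal proteins at 122% and 112%.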

How the data were processed

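Total leaf RNA was sequenced as paired-end libraries made with a TruSeq kit on a HiSeq instrument, 2 per stage. Reads were cleaned by the authors (SeqPrep, Sickle) and built into unigenes by Trinity, with RSEM named for quantification. Aligner settings and versions are not given in the sources used here. The deposited table holds raw fragment counts, FPKM, unigene length (another unit, in bases) and annotations for each unigene. The deposited counts were whole numbers, and the deposited FPKM were recovered from counts, length and column totals to within 5e-05. Totals were 4522835 to 12734565 fragments, median 9395582.5. A count of 0 allows up to 3 fragments, or 6.6e-05% of the shallowest library, and covers counting error only.

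Counts were tested with edgeR 4.0.16 (R 4.3.3) by the quasi-likelihood method, with TMM scaling and 1 coefficient per stage over all 10 libraries, for the 85267 unigenes that reached FPKM 1 in 2 or more libraries. Benjamini-Hochberg adjustment ran over all of them, calls were made at 0.05, and 7 comparisons were fitted (D75, D20, DT and R against F, D20 against D75, DT against D20, R against DT). The common biological coefficient of variation was 0.4354. SE is the log2 fold change divided by the root of the F statistic. The fit was tested on counts simulated with the same spread for every unigene and with few changed unigenes. Spread that differs between unigenes, and broad change as at D20, were not covered by that test. Alternatives used DESeq2 1.42.0, limma 3.58.1 with a pseudocount of 1, other scalings, filters, thresholds and units. Python 3.11.15 (numpy 2.4.6, pandas 2.3.3, matplotlib 3.10.9, scipy 1.17.1) made the tables and plots.

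Members and lists were chosen with earlier results of these data known. Transcripts named were the most abundant of the 8 highest proteins per subunit, the most abundant of each plastid-specific protein, the 3 largest called changes per direction against F at a mean FPKM of at least 5, and the most abundant unigene of each other list. Proteins given as sums beyond these were chosen after their values were seen, as were S1 CL8391.Contig2, S6 CL12392.Contig1, L17 Unigene47835 and L36 Unigene47794. Roles and the place of genes come from background knowledge of other plants and bacteria. Sequences were not used here.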

Additional observations from a re-analysis of the deposited data

How the results depend on the processing

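No called change of a named transcript turned round under any alternative. Of their values, 3226 stayed on the same side of the threshold, 160 were no longer past it and 142 were newly past it. The counts of members called were 6 (D75 against F), 103 (D20 against F), 44 (DT against F), 0 (R against F), 88 (D20 against D75), 6 (DT against D20) and 43 (R against DT). Leaving out 1 library in turn gave 1 to 41, 59 to 125, 23 to 64, 0 to 0, 41 to 96, 0 to 40 and 16 to 68 in the same order. DESeq2 called 13 at D75 against F and 26 at DT against D20, no filter 11 and 21, and limma 69 at DT against F. A fold of 2 with an adjusted p of 0.001 left 0, 25, 7, 15, 0 and 4 in the order above without R against F. Fits of the 4 libraries compared gave 0 (D75 against F), 28 (D20 against D75), 0 (DT against D20) and 69 (R against DT). Sums per assembly cluster, of 121, gave 60, 25, 52 and 27 for D20 against F, DT against F, D20 against D75 and R against DT. Sums per protein, of 48, gave 1, 28, 11, 24, 2 and 15. Members with a plastid Nr match gave 3 at D75 and 29 at DT against F, and members with fragments at D75 or D20 gave 0 at D75. Leaving out F replicate 2 and D75 replicate 1 together gave 49 at DT against D20 and 72 at R against DT. These last 3 settings were chosen after seeing the data. Sums leave fewer units to count, and otherwise the cause was not tested.

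The 30S minus 50S difference of median log2 fold changes had no test. For D20 against F (0.341) it was 0.264 to 0.508 without 1 library, 0.195 with limma, 0.005 per cluster, 0.459 per protein, 0.056 with plastid Nr matches and 0.225 with fragments at D75 or D20. For DT against F (0.146) it was 0.086 to 0.406 without 1 library, −0.021 per cluster, 0.299 per protein and 0.444 with plastid Nr matches. For D20 against D75 (−0.021) it was −0.186 to 0.266 without 1 library, −0.512 per cluster, 0.417 per protein, 0.082 without both libraries and 0.274 with plastid Nr matches. For DT against D20 (−0.133) it was −0.37 to −0.028 without 1 library, 0.132 per cluster, −0.274 per protein, 0.091 with plastid Nr matches and −0.236 with fragments at D75 or D20. For R against DT (−0.153) it was −0.463 to 0.069 without 1 library, 0.127 per cluster and −0.067 with plastid Nr matches, and for R against F (0.047) it was 0.235 with plastid Nr matches.

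Deviations of same-numbered libraries correlated at −0.161 to 0.098, so they showed no clear shared deviation. Whether the numbers pair plants or preparations is not given. With the replicate number as a block the counts were 9, 99, 40, 0, 75, 5 and 38.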
